A study of Capra hircus with 36 samples.

Results

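The miR-17-92 and miR-106b-25 clusters are paralogous groups of miRNA genes, each transcribed as 1 precursor that is cut into several mature miRNAs. Members were taken by name from the table of mature miRNAs: miR-17, miR-18a, miR-19a, miR-19b, miR-20a and miR-92a for the miR-17-92 cluster, and miR-106b, miR-93 and miR-25 for the miR-106b-25 cluster. Both arms and every copy were included, those carrying the authors' prefix for a match to another mammal too, and entries classed by the authors without any match were left out. This gave 17 of 1391 mature miRNAs, 9 in miR-17-92 and 8 in miR-106b-25. Of the 9 names, 8 were found, and the exception was miR-18a. No entry named chi-miR-17-5p was among those chosen, and miR-17 is represented by chi-miR-17-3p, whose identity was not checked by sequence.

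Small RNA was sequenced from spleen, lung, liver, heart, kidney and longissimus muscle of 3 goats of the Tibetan Goat population at 3000 m and 3 of the Chuandong White Goat population at 600 m. All were females labelled as over 3 years old. Each of the 12 combinations of tissue and altitude had 3 libraries, 36 in all, named here by altitude and replicate number. Altitude, breed, place and form of rearing changed together between the populations and cannot be told apart. The counts of a library summed to between 7108635 and 14407748, at which 3 counts equal 0.208 to 0.422 RPM (each count scaled to the library's sum over all mature miRNAs). These floors cover counting error only. High-altitude replicate 2 had the highest chi-miR-92a-3p of the 6 libraries in lung, liver, heart, kidney and muscle, and high-altitude replicate 1 had the highest in spleen.

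Members of both clusters are known as promoters of cell cycle entry and survival, and the miR-17-92 cluster is needed in mice for normal B cell and lung development. The miR-106b-25 cluster lies in an intron of MCM7, a gene of the DNA replication helicase. A mature miRNA binds its targets mainly through the seed, bases 2 to 8, and the families of these clusters are named by the seed of 1 arm of each member: the 5p arm in the miR-17 family (miR-17, miR-20a, miR-93, miR-106b) and the miR-18 family (miR-18a), and the 3p arm in the miR-19 family (miR-19a, miR-19b) and the miR-25 family (miR-25, miR-92a). The opposite arms carry other seeds, so chi-miR-17-3p is counted in the cluster and not in the miR-17 family. In the RefSeq gene table of goat assembly ARS1.2, MIR17, MIR18A, MIR19A, MIR20A, MIR19B and MIR92A are successive genes, and MCM7 is followed by MIR106B, MIR93, MIR25 and COPS6. The X-linked miR-106a-363 cluster is a further paralog that also encodes copies of miR-19b and miR-92a, so the mature counts of these members cannot be assigned to 1 locus.

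The seed of the miR-17 family is shown by the related conserve-chi-miR-106a-5p of the miR-106a-363 cluster, for which the study's primer list holds the mature sequences below, with bases 2 to 8 in capitals. Both entries carry the same name and the same seed.
conserve-chi-miR-106a-5p: aAAAGTGCttatagtgcaggtaga
conserve-chi-miR-106a-5p: aAAAGTGCttacagtgcaggtag

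The tissue labels were compared with summed lists of miRNAs known from cell types. The heart muscle list (miR-208a, miR-208b, miR-499) averaged 20426 ± 3154 RPM (SD, n = 6) in heart and 2802 ± 1529 RPM in muscle, the next tissue. The skeletal muscle list (miR-1, miR-133a, miR-133b, miR-206) averaged 485025 ± 65853 RPM in muscle and 253320.0 ± 78174 RPM in heart, with 2 entries of equal counts both summed. With these counted once it averaged 248910.0 ± 37323 RPM in muscle and 129603 ± 42135 RPM in heart, a form chosen after seeing the data. Liver's miR-122 averaged 50656 ± 65303 RPM in liver, with libraries from 6201 to 179959 RPM, and 81.5 ± 76.0 RPM in kidney. These lists were highest in the tissue they are named for, as were the kidney list (318208 ± 102129 RPM in kidney, 103485 ± 57338 RPM in muscle) and the ciliated cell list (7093 ± 3883 RPM in lung, 33.5 ± 14.1 RPM in liver). Most reads of the kidney list were chi-miR-10b-5p, and miR-192 was not among the miRNAs analysed. Epithelial miR-200, miR-141 and miR-429 averaged 8399 ± 2475 RPM in lung and 3645 ± 2643 RPM in kidney, and endothelial miR-126 averaged 21318 ± 11065 RPM in lung and 19802 ± 2351 RPM in liver. The erythroid list (miR-144 and miR-486, with no miR-451 among the miRNAs analysed) averaged 22934 ± 11371 RPM in muscle and 5001 ± 4250.2 RPM in spleen. Its most abundant entries, conserve-chi-miR-486-5p and chi-miR-144-3p, had 0 counts in some libraries and many in others of the same tissue, so it is not read as a measure of red blood cells. The leukocyte list (miR-142, miR-150, miR-155, miR-223) averaged 43262 ± 18526 RPM in spleen, with 8 of its 8 mature miRNAs detected there, 12512 ± 5514 RPM in liver and 1276 ± 495 RPM in muscle. Its most abundant miRNA in spleen was conserve-chi-miR-142-5p with a mean of 33971 RPM. The smooth muscle list (miR-143, miR-145) was also highest in spleen, at 427937 ± 77165 RPM, and lowest in muscle, at 31897 ± 16774 RPM.

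Of the 17 members, 9 averaged at least 10 RPM over the 36 libraries, 5 in miR-17-92 and 4 in miR-106b-25. The most abundant were chi-miR-92a-3p with a mean of 3123 RPM and chi-miR-25-3p with 2401 RPM, which both carry the miR-25 family seed and ranked 40 and 48 among the 1391 mature miRNAs. The ratio of chi-miR-92a-3p to chi-miR-25-3p ran from 0.529 to 3.23, so their order differed between libraries. Together these members held 76.0% of the reads of both clusters, when RPM were summed over libraries. They were followed by chi-miR-19b-3p (647 RPM), chi-miR-93-5p (529.8 RPM), chi-miR-106b-3p (140.1 RPM), chi-miR-20a-5p (132 RPM), chi-miR-19a-3p (119 RPM), chi-miR-17-3p (95.3 RPM) and chi-miR-106b-5p (60.1 RPM). Members counted under 1 cluster thus differed widely in abundance. Levels of different miRNAs also depend on how each sequence is captured in library preparation, so these are read counts and not molecule numbers.

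The 8 members under 10 RPM were mostly the minor arms. Means were 5.58 RPM for chi-miR-20a-3p, 4.17 RPM for chi-miR-92a-5p, 3.94 RPM for chi-miR-25-5p and 2.56 RPM for chi-miR-93-3p. The chi-miR-19a-5p arm had a largest count of 13, and chi-miR-19b-5p had 8 counts in 1 library and 0 in the others. The separate entries conserve-chi-miR-93-5p and conserve-chi-miR-93-3p had counts in 2 and 4 libraries, at most 22 and 5. In miR-93 the 5p arm held 97.6% to 99.9% of the reads of both arms over the libraries, and in miR-92a the 3p arm held 99.6% to 99.99%. Only miR-106b had both arms above 10 RPM, and its 3p arm held 52.0% to 87.4% of its reads, the larger share in each of the 36 libraries.

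Summed over members, miR-17-92 ranged from 1519 to 13618 RPM over the 36 libraries (median 3497) and miR-106b-25 from 789.6 to 8174 RPM (median 2928). Spleen was highest for both clusters. In spleen, miR-17-92 ran from 4679 to 13618 RPM (median 6427) with a mean of 7261 ± 3251 RPM (SD, n = 6), and miR-106b-25 ran from 3999.7 to 8174 RPM (median 5578) with a mean of 6019 ± 1578 RPM. The next tissues by mean were liver (4969 ± 1938 RPM) and lung (4656 ± 2453 RPM) for miR-17-92, and lung (4213 ± 1823 RPM) and liver (3599 ± 404 RPM) for miR-106b-25. Heart, kidney and muscle formed the lower end in RPM. There miR-17-92 averaged 2823 ± 531 RPM in heart, 2629.8 ± 1215 RPM in kidney and 2423 ± 1451 RPM in muscle, and miR-106b-25 averaged 1851 ± 484 RPM, 1887 ± 879 RPM and 1255 ± 375 RPM in the same order. The ranges of neighbouring tissues overlapped for miR-17-92 at each step of this order, and for miR-106b-25 at each step except that between liver and kidney, where the lowest liver library (3209 RPM) lay above the highest kidney library (2997 RPM). These levels are relative to library totals. With edgeR's TMM scaling instead, mean summed miR-17-92 was 3662 in heart and 3978 in muscle. Mean summed miR-106b-25 was then 2350 in heart, 2174 in muscle and 2787 in liver. These means moved by more than the SD of their 6 libraries, and those of the other tissues did not. Since these are bulk tissues, fewer cells of a type and less RNA per cell cannot be told apart.

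Over the 12 means of tissue and altitude, the summed leukocyte list had a Pearson correlation of 0.95 with summed miR-17-92 and 0.97 with summed miR-106b-25, on log2(RPM + 1). For the smooth muscle list, miR-143 and miR-145, it was 0.86 and 0.92, and for the erythroid list -0.031 and -0.12. The other 7 lists lay between -0.64 and 0.47. These points share libraries and their totals, and the part of other cell types in the levels was not tested. Within spleen the leukocyte list was at 17706, 67536 and 62145 RPM in high-altitude replicates 1 to 3 and 36592, 35260.0 and 40332 RPM in low-altitude replicates 1 to 3. In the same order summed miR-17-92 was at 13618, 6448 and 6405 and 7247, 5169 and 4679 RPM, and summed miR-106b-25 at 7630.3, 5555 and 8174 and 5600.0, 3999.7 and 5157 RPM. High-altitude replicate 1 was lowest for that list and highest for miR-17-92, and no correlation was computed within spleen.

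**Figure D1:**
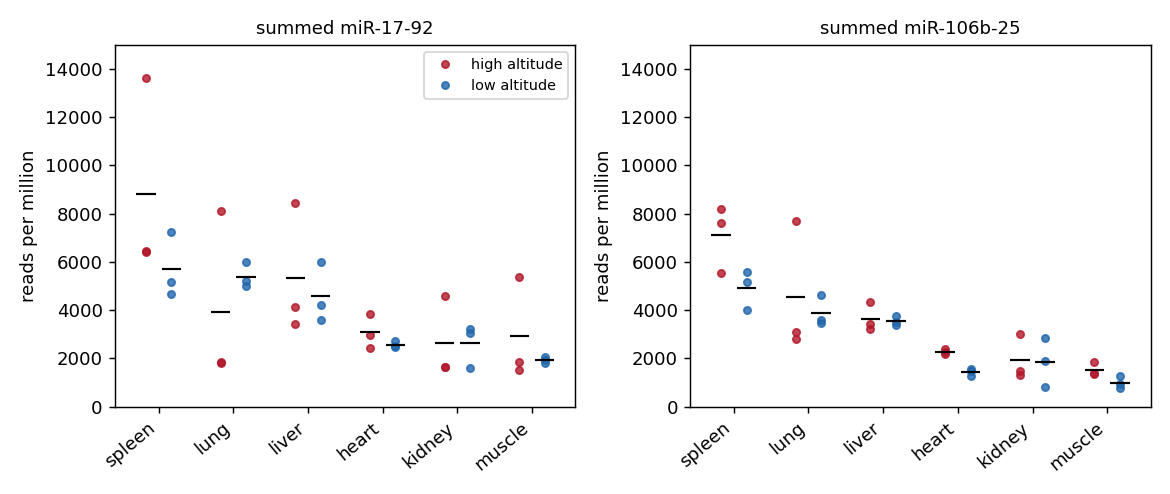
Summed RPM of the miR-17-92 and miR-106b-25 clusters in each library (points), by tissue, with high-altitude goats in red and low-altitude goats in blue and black bars for the mean of 3 libraries. Spleen lies highest in both panels, with a mean of 7261 RPM for miR-17-92 and 6019 RPM for miR-106b-25.

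Set against each other, summed miR-17-92 exceeded summed miR-106b-25 in 32 of 36 libraries, 15 of the 18 high-altitude and 17 of the 18 low-altitude libraries. The log2 ratio of miR-17-92 to miR-106b-25 averaged 0.86 ± 0.52 (SD, n = 6) in muscle, 0.63 ± 0.30 in heart, 0.50 ± 0.32 in kidney, 0.39 ± 0.37 in liver, 0.22 ± 0.42 in spleen and 0.022 ± 0.58 in lung. The ranges of all neighbouring tissues in this order overlapped. The order depends on miR-19b and miR-92a, which hold most reads of miR-17-92: without them the log2 ratio ran from -3.79 in lung to -2.89 in kidney.

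In lung, the log2 ratio was -0.75, 0.072 and -0.63 in high-altitude replicates 1 to 3 and 0.58, 0.48 and 0.37 in low-altitude replicates 1 to 3. All 3 high-altitude lung libraries lay below the low-altitude ones. In heart it was 0.17, 0.67 and 0.39 in the high-altitude group and 0.82, 0.96 and 0.79 in the low-altitude group, again with every high-altitude library below every low-altitude one. In spleen it was 0.84, 0.22 and -0.35 against 0.37, 0.37 and -0.14, and these ranges overlapped, as did those of kidney, liver and muscle. Without both arms of miR-92a and miR-25 the log2 ratio was -0.43, -0.42 and 0.19 against 0.99, -0.73 and 0.25 in lung and -0.59, 1.39 and -0.79 against 1.33, 2.02 and 1.804 in heart, and the groups overlapped in both tissues. The difference of the group means, high less low altitude, went from -0.91 to -0.39 in lung and from -0.45 to -1.72 in heart, where high-altitude replicate 2 alone lay above the lowest low-altitude library. In muscle the log2 ratio without them was -0.32, 0.25 and -0.12 against 1.86, 0.69 and 0.50, with all low-altitude libraries higher. This reading by library was chosen after seeing the data. The sum of miR-106b-25 itself was separated in heart (2175, 2405 and 2259.8 RPM in the high-altitude group, 1547, 1262 and 1458 RPM in the low-altitude group) and in muscle (1379, 1849 and 1337 and 789.6, 923 and 1251 RPM), with the high-altitude libraries higher, and that of miR-17-92 overlapped in each tissue. Of pairs of tissue and single miRNA with a mean of at least 10 RPM, 10.2% were separated with high altitude above and 12% with low altitude above. Such a share was not computed for sums or ratios, so these separations are not read as a result about the clusters. No p was computed for sums or ratios over members.

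**Figure D2:**
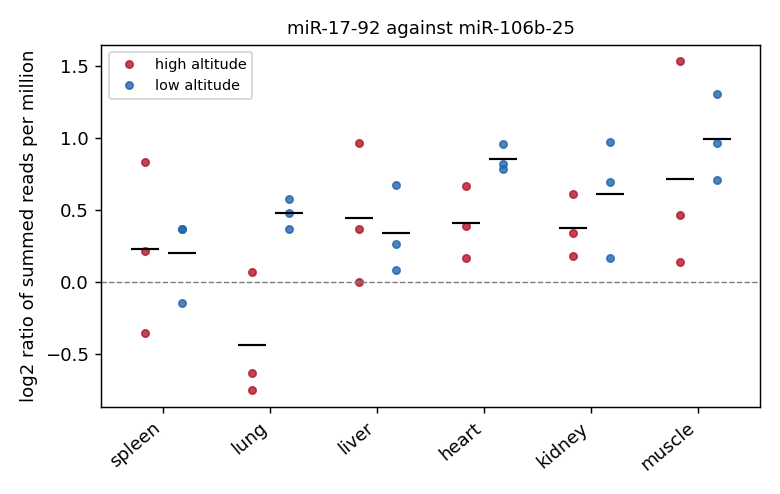
Log2 ratio of summed miR-17-92 to summed miR-106b-25 in each library (points), by tissue, high-altitude goats in red, low-altitude goats in blue, black bars for the mean of 3 libraries and a dashed line at equal sums. Points lie above the line in 32 of 36 libraries.

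Each of the 17 members was then compared between a tissue and the mean of the other 5 with edgeR's quasi-likelihood test over all 36 libraries, with calls at an adjusted p under 0.05. In spleen 7 members were called, all of them higher, against 13% of all 1391 miRNAs called higher there and 6.47% called lower. These were 4 members of miR-106b-25 and 3 of miR-17-92. The median log2 fold change in spleen was 0.59 over the members and -0.31 over all miRNAs.

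The miR-17 family member chi-miR-93-5p, from the miR-106b-25 cluster, ran from 851 to 1763 RPM (median 1233) in spleen, from 496 to 1042 RPM (median 648) in liver and from 377 to 1045 RPM (median 539) in lung. In kidney it ran from 120.0 to 538 RPM (median 249.7), in heart from 141.7 to 216 RPM (median 168) and in muscle from 87.5 to 168 RPM (median 104). The spleen libraries overlapped those of liver and lung and lay above every heart, kidney and muscle library. In spleen chi-miR-93-5p was higher than in the other tissues (edgeR: log2 fold change 1.59 ± 0.14 SE, adjusted p = 1.31e-09) and it was also higher in liver (edgeR: log2 fold change 0.66 ± 0.15 SE, adjusted p = 0.0022). It was lower in muscle (edgeR: log2 fold change -1.12 ± 0.17 SE, adjusted p = 1.05e-05), heart (edgeR: log2 fold change -0.86 ± 0.17 SE, adjusted p = 4.47e-04) and kidney (edgeR: log2 fold change -0.50 ± 0.17 SE, adjusted p = 0.0377). With scaling by library totals kidney had a log2 fold change of -0.41 and was not called (adjusted p = 0.615).

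Both arms of miR-106b had the same leading tissue. The 5p arm, with the miR-17 family seed, ran from 101 to 187 RPM (median 137) in spleen, from 33.3 to 108 RPM (median 71.6) in lung and from 11.5 to 24.7 RPM (median 14.9) in muscle. It was higher in spleen (edgeR: log2 fold change 1.498 ± 0.17 SE, adjusted p = 1.20e-07) and lower in muscle (edgeR: log2 fold change -0.88 ± 0.20 SE, adjusted p = 0.00163) and heart (edgeR: log2 fold change -0.69 ± 0.20 SE, adjusted p = 0.0161). The 3p arm ran from 166 to 381 RPM (median 246) in spleen and from 30.7 to 119 RPM (median 58.8) in kidney. It was higher in spleen (edgeR: log2 fold change 0.87 ± 0.17 SE, adjusted p = 4.28e-04) and lower in kidney (edgeR: log2 fold change -0.89 ± 0.20 SE, adjusted p = 0.00126), a call kept with scaling by library totals (log2 fold change -0.86, adjusted p = 0.0432).

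The miR-25 family member chi-miR-25-3p ran from 2793 to 5995 RPM (median 3941) in spleen, from 2260.0 to 6348 RPM (median 2695) in lung and from 2386 to 3028 RPM (median 2575) in liver. In heart it ran from 1042 to 2081 RPM (median 1596), in kidney from 625 to 2314 RPM (median 1334) and in muscle from 627 to 1546 RPM (median 1089). Every liver library lay above every heart library, and the other neighbours in this order overlapped. It was higher in spleen (edgeR: log2 fold change 0.79 ± 0.15 SE, adjusted p = 1.75e-04) and lower in kidney (edgeR: log2 fold change -0.65 ± 0.16 SE, adjusted p = 0.004), where library totals gave -0.63 with an adjusted p of 0.101 and no call. In muscle the log2 fold change was -0.28 with TMM, not called, and -1.24 with library totals. Whether kidney or muscle had the lower estimate thus depended on the scaling.

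In the miR-17-92 cluster, chi-miR-92a-3p, with the same seed as chi-miR-25-3p, ran from 2481 to 11030.1 RPM (median 4476) in spleen, from 1196 to 7086 RPM (median 4064) in lung and from 2601 to 7149.5 RPM (median 3127) in liver. In heart it ran from 1561 to 2984 RPM (median 2197), in muscle from 1366 to 4995 RPM (median 1622) and in kidney from 720.0 to 3555 RPM (median 1490.1). All neighbouring tissues overlapped. The spleen contrast was not called (edgeR: log2 fold change 0.58 ± 0.22 SE, adjusted p = 0.0683), and kidney was lower (edgeR: log2 fold change -0.84 ± 0.25 SE, adjusted p = 0.0155), where library totals gave -0.80 with an adjusted p of 0.165 and no call. With a goat left out, the spleen log2 fold change ran from 0.097 to 0.85.

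The miR-19 family members had close tissue profiles. In spleen chi-miR-19b-3p ran from 635 to 2011 RPM (median 1542) and chi-miR-19a-3p from 132.6 to 457 RPM (median 349). In muscle chi-miR-19b-3p ran from 79.7 to 376 RPM (median 145.4) and chi-miR-19a-3p from 9.02 to 65.2 RPM (median 22.1). The highest muscle library lay below the lowest spleen library for both. In liver, lung, kidney and heart, means of chi-miR-19b-3p were 746 ± 469 RPM (SD, n = 6), 596 ± 306 RPM, 577 ± 272 RPM and 394 ± 258 RPM, and neighbours in the order overlapped. In spleen both chi-miR-19b-3p (edgeR: log2 fold change 1.26 ± 0.37 SE, adjusted p = 0.0145) and chi-miR-19a-3p (edgeR: log2 fold change 1.75 ± 0.37 SE, adjusted p = 8.52e-04) were higher. In muscle chi-miR-19a-3p was lower (edgeR: log2 fold change -1.32 ± 0.47 SE, adjusted p = 0.04995), and chi-miR-19b-3p was not called (edgeR: log2 fold change -1.05 ± 0.44 SE, adjusted p = 0.114).

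With the miR-17 family seed, chi-miR-20a-5p ran from 118 to 336 RPM (median 269) in spleen, from 68.9 to 376 RPM (median 219) in liver and from 22.7 to 72.3 RPM (median 47.5) in muscle. The spleen and liver ranges overlapped. It was higher in spleen (edgeR: log2 fold change 0.93 ± 0.22 SE, adjusted p = 0.00263) and in liver (edgeR: log2 fold change 0.72 ± 0.22 SE, adjusted p = 0.024). For chi-miR-17-3p liver had the highest mean (167 ± 66.5 RPM, SD, n = 6), followed by spleen (144.2 ± 28.1 RPM), and liver was called higher (edgeR: log2 fold change 0.73 ± 0.21 SE, adjusted p = 0.0149).

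**Figure D3:**
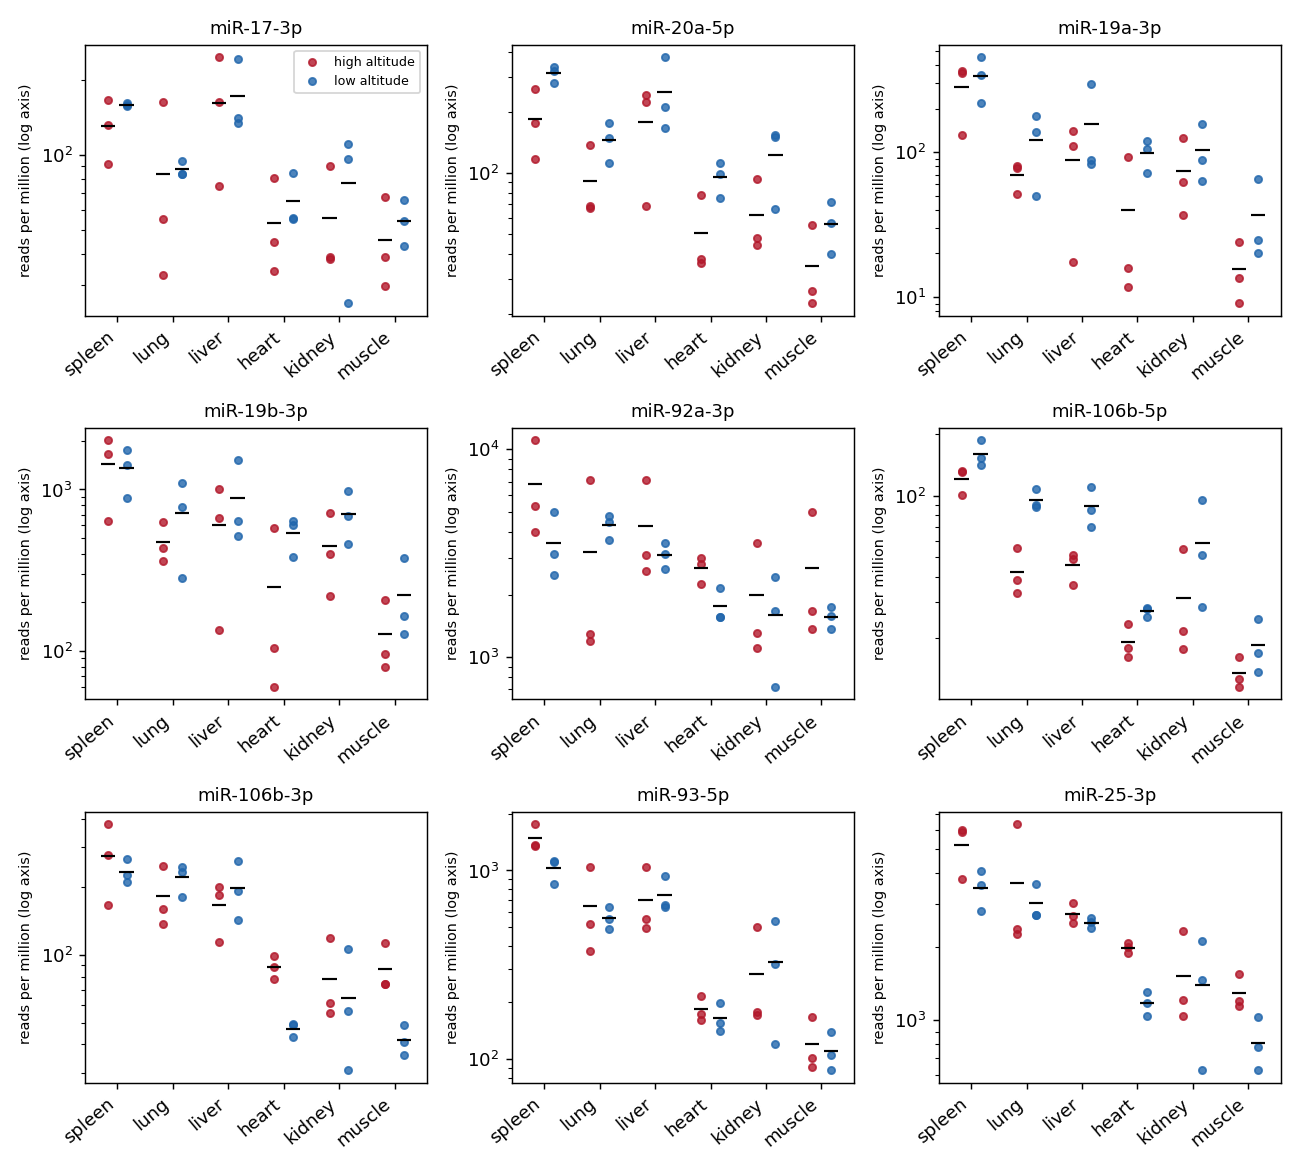
RPM on a log axis of the 9 members with a mean of at least 10 RPM in each library (points), by tissue, high-altitude goats in red, low-altitude goats in blue and black bars for the mean of 3 libraries. The tissue order and the altitude separation differ between members, with all 3 low-altitude chi-miR-106b-5p libraries above the high-altitude ones in heart, liver, lung and spleen.

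In the remaining tissues, 6 of 17 members were called in kidney, all lower, against 4.39% of all miRNAs called lower there and 11.7% called higher. They were chi-miR-25-3p, chi-miR-25-5p, chi-miR-93-5p, chi-miR-106b-3p, chi-miR-92a-3p and chi-miR-92a-5p. In liver 4 were called, all higher (10.9% of all miRNAs called higher, 5.03% lower), namely chi-miR-93-5p, chi-miR-17-3p, chi-miR-20a-5p and chi-miR-92a-5p. In muscle 4 were called, 3 lower (6.04% of all miRNAs) and 1 higher, chi-miR-92a-5p (11.6% of all miRNAs). In heart 3 were called, 2 lower (4.82% of all miRNAs) and 1 higher, conserve-chi-miR-93-5p, which had counts in 2 of 36 libraries (8.48% of all miRNAs). That call was lost with the goat as a replicate block (adjusted p = 0.109 from edgeR), and DESeq2 gave it no adjusted p. In lung edgeR called 0 members, where 10.6% of all miRNAs were called higher and 5.97% lower, with 5 members at an unadjusted p under 0.05 against 24.7% of all miRNAs. DESeq2 called 5 of the 14 members it tested in lung, 3 higher and 2 lower, against 37.8% of all the miRNAs it tested. Other edgeR fits called 2 lung members with RLE, 3 with library totals, 4 with filterByExpr and 2 with the goat as replicate block. These fits called 17.4%, 17.4%, 34.4% and 14.1% of the miRNAs tested, in the same order. These contrasts are relative to the TMM scaling, which moved the estimates, read on chi-miR-25-3p, against scaling by library totals by 0.96 on the log2 scale in muscle, 0.49 in heart, -0.60 in lung, -0.44 in spleen, -0.40 in liver and -0.027 in kidney. The median log2 fold change over members and over all miRNAs was -0.39 and -0.38 in kidney, 0.18 and -0.17 in liver, -0.33 and -0.42 in muscle, -0.18 and -0.42 in heart, and -0.33 and -0.39 in lung. No called member changed sign under TMM, RLE or library totals. With library totals only, 1 member was called in kidney, chi-miR-106b-3p, against 14.4% of all miRNAs called in either direction in that fit and 16.1% with TMM. The kidney log2 fold changes of chi-miR-25-5p (-1.16, adjusted p = 0.115) and chi-miR-92a-5p (-1.31, adjusted p = 0.116) were then not called either, and that of chi-miR-92a-5p in muscle was 0.34, against 1.33 with TMM, and was not called.

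The counts of called members in kidney, liver, heart and muscle changed by over 1.5 times when single goats were left out, in kidney with any goat. In kidney they fell to 1, 0 and 1 without high-altitude replicates 1, 2 and 3, and to 0, 0 and 2 without low-altitude replicates 1, 2 and 3. In liver they were 0 and 2 without high-altitude replicates 2 and 3, and 1, 0 and 1 without low-altitude replicates 1, 2 and 3. In heart 1 member was called without high-altitude replicate 2 and 1 without low-altitude replicate 3. In muscle 2 were called without high-altitude replicate 2 and 2 without low-altitude replicate 2. In spleen the counts ran from 5 to 8 as single goats were left out, and in lung they were 0 with each goat. Over all miRNAs the share called in either direction in these fits was 12.6 to 14.6% in kidney (16.1% with all goats), 10.8 to 12.7% in liver (15.9% with all goats), 9.35 to 11.1% in heart (13.3% with all goats), 13.6 to 15.2% in muscle (17.7% with all goats), 13.5 to 15.8% in spleen (19.5% with all goats) and 10.7 to 12.7% in lung (16.5% with all goats). For chi-miR-93-5p in spleen, the log2 fold change ran from 1.52 to 1.63 over the same fits. The kidney log2 fold changes of chi-miR-25-3p (-0.61 to -0.40) and chi-miR-93-5p (-0.45 to -0.22) in these fits did not reach those with all goats (-0.65 and -0.50), and the cause was not tested.

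Between altitudes, the members were compared within each tissue, 3 libraries against 3, with calls at an adjusted p under 0.05 and a log2 fold change of 1.5 or more in size, and fold changes given as high over low altitude. Values of a group are given in the order of replicates 1 to 3. Of 102 pairs of member and tissue, edgeR's quasi-likelihood test called 0, against 0.0359% of the pairs over all miRNAs. The lowest adjusted p of a member was 0.675, and 6 pairs had an unadjusted p under 0.05, against 5.32% of the pairs over all miRNAs. These were chi-miR-106b-3p in heart and muscle, chi-miR-20a-5p in heart and kidney, chi-miR-106b-5p in lung and chi-miR-92a-5p in spleen. Of the 83 pairs of members that DESeq2's Wald test gave an adjusted p, it called 1, against 4.89% of such pairs over all miRNAs, and 4 without the fold minimum, against 6.28%. Of these 83 pairs, 19 had an unadjusted p under 0.05, against 16.3%. The exact test of edgeR called 0 of the 102 pairs, against 0.335% over all miRNAs, with 3 pairs at an unadjusted p under 0.05, against 4.35%. TMM scaling moved the estimates against library totals by -0.18 in heart, 0.13 in kidney, 0.12 in liver and 0.13 in muscle on the log2 scale, and by less than 0.1 in lung and spleen. Separation of the libraries was read for the 9 members above 10 RPM. All 3 high-altitude libraries lay above the low-altitude ones in 6 of 54 pairs, against 10.2% of all such pairs of miRNA and tissue, and below them in 5 of 54, against 12%. Of the 24 pairs of miR-106b-25, 5 were higher (20.8%) and 4 lower (16.7%), the lower ones all of chi-miR-106b-5p. Of the 30 pairs of miR-17-92, 1 was higher and 1 lower (3.33% each). The difference between the clusters was not tested.

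The pair that DESeq2 called with the fold minimum was chi-miR-92a-5p in spleen, described for that call, with 8.62, 5.08 and 7.45 RPM (high altitude) against 3.24, 1.73 and 1.56 RPM (low altitude). The high-altitude libraries lay above the low-altitude ones, at levels under 10 RPM. DESeq2 gave a log2 fold change of 1.74 ± 0.59 SE with an adjusted p of 0.0457, and edgeR gave 1.68 ± 0.67 SE with an adjusted p of 0.729. The other pairs it called, without the fold minimum, had lower adjusted p. They were chi-miR-20a-5p in kidney, with 47.8, 93.7 and 44.2 RPM (high altitude) against 66.8, 150.4 and 154 RPM (low altitude), chi-miR-106b-5p in lung and chi-miR-106b-3p in muscle. The kidney groups of chi-miR-20a-5p overlapped. For it DESeq2 gave -0.85 ± 0.21 SE with an adjusted p of 0.00325, and edgeR gave -0.94 ± 0.34 SE with an adjusted p of 0.959.

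For chi-miR-25-3p in heart, the levels were 1882, 2081 and 1988 RPM (high altitude) against 1309, 1042 and 1183 RPM (low altitude). The 2 groups did not overlap, and the contrast was not called (edgeR: log2 fold change 0.58 ± 0.25 SE, adjusted p = 0.748). In muscle they were 1199, 1546 and 1146 RPM (high altitude) against 627, 776 and 1033 RPM (low altitude), again without overlap (edgeR: log2 fold change 0.80 ± 0.34 SE, adjusted p = 0.746). In spleen they were 5995, 3787 and 5887 RPM (high altitude) against 4094, 2793 and 3579.6 RPM (low altitude), and the groups overlapped (edgeR: log2 fold change 0.56 ± 0.35 SE, adjusted p = 0.729). With a goat left out, the log2 fold change ran from 0.42 to 0.67 in heart, 0.60 to 0.89 in muscle and 0.32 to 0.79 in spleen. Tissues of 1 population come from the same goats, so these are not independent observations.

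In heart, the arms of miR-106b were separated in opposite directions. There chi-miR-106b-5p had 17.9, 23.6 and 16.1 RPM (high altitude) against 28.2, 25.4 and 27.7 RPM (low altitude), all low-altitude libraries higher. The 3p arm had 98.7, 78.3 and 87.8 RPM (high altitude) against 48.9, 49.3 and 42.9 RPM (low altitude), all high-altitude libraries higher. Neither the 5p contrast (edgeR: log2 fold change -0.66 ± 0.33 SE, adjusted p = 0.748) nor the 3p contrast (edgeR: log2 fold change 0.73 ± 0.28 SE, adjusted p = 0.748) was called. In muscle the 3p arm had 73.8, 113 and 73.9 RPM (high altitude) against 35.8, 40.8 and 48.9 RPM (low altitude), without overlap (edgeR: log2 fold change 1.15 ± 0.37 SE, adjusted p = 0.675). For this pair DESeq2 gave 1.15 ± 0.30 SE with an adjusted p of 0.00664. The 5p arm in muscle had 11.5, 16.2 and 12.6 RPM (high altitude) against 16.9, 13.6 and 24.7 RPM (low altitude), with overlap. In lung, chi-miR-106b-5p had 38.5, 55.2 and 33.3 RPM (high altitude) against 88.0, 90.0 and 108 RPM (low altitude), without overlap (edgeR: log2 fold change -1.01 ± 0.34 SE, adjusted p = 0.832), and DESeq2 gave -0.96 ± 0.25 SE with an adjusted p of 0.00476. In liver it had 51.0, 48.9 and 36.6 RPM (high altitude) against 84.9, 110.3 and 70.5 RPM (low altitude) and in spleen 101, 131 and 132 RPM (high altitude) against 153, 141.9 and 187 RPM (low altitude). In both tissues the low-altitude libraries lay above the high-altitude ones, and neither contrast was called. The 3p arm overlapped between altitudes in lung, liver, kidney and spleen, and its fitted log2 fold change was below 0, like that of the 5p arm, in lung (-0.14) and liver (-0.17). Over the 36 libraries the arms had a Pearson correlation of 0.78 on log2(RPM + 1).

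The share of the 3p arm in the reads of both miR-106b arms was compared between altitudes after its values were seen. In kidney it was 75.7, 68.5 and 73.9% (high-altitude replicates 1 to 3) against 52.0, 52.6 and 52.7% (low-altitude replicates 1 to 3). In muscle it was 86.5, 87.4 and 85.4% and 67.9, 75.0 and 66.4%, and in lung 80.5, 81.8 and 80.4% and 67.3, 72.2 and 69.5%. All 3 high-altitude libraries lay above all low-altitude libraries in these tissues and in heart and spleen, 5 of 6 tissues, and overlapped in liver, with 78.4, 80.3 and 75.7% and 62.6, 63.6 and 78.7%. Over the 81 miRNAs with both arms at a mean of at least 10 RPM, the share of the 3p arm was separated in this direction in 24.3% of pairs of miRNA and tissue and in the other in 9.26%. It was separated with high altitude above in at least 5 tissues for 6 of these miRNAs, miR-106b included, and with low altitude above for 2. No p was computed for these shares.

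For chi-miR-93-5p, spleen libraries had 1357, 1349 and 1763 RPM (high altitude) against 1109.7, 851 and 1118 RPM (low altitude), and every high-altitude library lay above every low-altitude one (edgeR: log2 fold change 0.49 ± 0.30 SE, adjusted p = 0.729). In lung chi-miR-93-5p had 523, 1045 and 377 RPM (high altitude) against 492, 556 and 642 RPM (low altitude), with overlap. High-altitude replicate 2 was highest of the 6 there.

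In the miR-17-92 cluster, chi-miR-92a-3p in heart had 2252, 2984 and 2802 RPM (high altitude) against 2143, 1569 and 1561 RPM (low altitude), without overlap (edgeR: log2 fold change 0.42 ± 0.29 SE, adjusted p = 0.797). In lung it had 1299, 7086 and 1196 RPM (high altitude) against 3675, 4454 and 4799.7 RPM (low altitude), and in liver 3111, 7149.5 and 2601 RPM (high altitude) against 3143, 3552 and 2645 RPM (low altitude). High-altitude replicate 2 was the highest library in each tissue except spleen, and the other 2 high-altitude lung libraries lay below all low-altitude ones. In spleen it had 11030.1, 3980.4 and 5312 RPM (high altitude) against 4972, 2481 and 3121 RPM (low altitude), with high-altitude replicate 1 far above the other libraries. The spleen contrast was not called (edgeR: log2 fold change 0.99 ± 0.54 SE, adjusted p = 0.729). With a goat left out, the log2 fold change of chi-miR-92a-3p ran from 0.26 to 1.30 in spleen and from 0.19 to 0.61 in heart.

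For chi-miR-19b-3p in heart, the levels were 104, 581 and 60.1 RPM (high altitude) against 380.0, 602 and 635 RPM (low altitude). High-altitude replicates 1 and 3 were low and replicate 2 lay among the low-altitude libraries, so the groups overlapped (edgeR: log2 fold change -1.22 ± 0.88 SE, adjusted p = 0.797). With a goat left out, the log2 fold change ran from -2.99, without high-altitude replicate 2, to -0.78, without high-altitude replicate 3, and was not called. The same libraries were low for chi-miR-19a-3p, with 15.8, 92.3 and 11.6 RPM (high altitude) against 72.3, 120.3 and 105.8 RPM (low altitude) (edgeR: log2 fold change -1.42 ± 0.86 SE, adjusted p = 0.797). In spleen chi-miR-20a-5p had 118, 259.9 and 178 RPM (high altitude) against 336, 321 and 279 RPM (low altitude), all low-altitude libraries higher (edgeR: log2 fold change -0.85 ± 0.38 SE, adjusted p = 0.729). For chi-miR-17-3p in lung, the levels were 55.1, 163 and 32.8 RPM (high altitude) against 83.7, 83.8 and 94.6 RPM (low altitude), with overlap.

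The fitted log2 fold change between altitudes was above 0 in every tissue for 1 of the 9 members above 10 RPM, chi-miR-25-3p, against 11.7% of all miRNAs above 10 RPM. It was below 0 in every tissue for 4, chi-miR-106b-5p, chi-miR-19a-3p, chi-miR-20a-5p and chi-miR-17-3p, against 12%. With RLE or library totals these counts of tissues were the same except for chi-miR-17-3p, below 0 in 5 of 6 tissues with RLE. The other members were mixed, with chi-miR-92a-3p above 0 in 5 tissues, chi-miR-19b-3p in 1 and chi-miR-106b-3p in 4 under these scalings, and chi-miR-93-5p in 3 with TMM and 4 with RLE or library totals. Tissues share goats, so these counts are a description.

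Members of 1 cluster were also compared with each other over libraries, on log2(RPM + 1), as a description. Over the 36 libraries the Pearson correlation of chi-miR-19a-3p with chi-miR-19b-3p was 0.98, and over deviations from the 12 means of tissue and altitude it was 0.98. Between chi-miR-19b-3p and chi-miR-92a-3p, both counted here under miR-17-92, it was 0.38 over libraries and 0.26 over deviations. Across clusters, chi-miR-92a-3p and chi-miR-25-3p, which share a seed, gave 0.83 and 0.86. In miR-106b-25, chi-miR-25-3p and chi-miR-93-5p gave 0.91 and 0.87. The summed clusters gave 0.85 over the 36 libraries. All pairs share libraries and their totals. The ratio of chi-miR-19b-3p to chi-miR-19a-3p stayed between 3.81 and 8.84 over the libraries, whereas that of chi-miR-92a-3p to chi-miR-19b-3p ran from 1.06 to 46.7.

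Of the related miRNAs outside the clusters (miR-106a, miR-18b, miR-20b, miR-363, miR-92b, miR-32 and miR-367, of which the last 2 had no entry among those analysed), 10 mature miRNAs were listed and 2 averaged at least 10 RPM. One was chi-miR-363-3p of the miR-106a-363 cluster, with a mean of 80.4 ± 36.3 RPM (SD, n = 6) in spleen and 22.8 ± 10.95 RPM in liver, which was higher in spleen (edgeR: log2 fold change 2.57 ± 0.29 SE, adjusted p = 1.20e-07). The other was chi-miR-92b-3p, with a mean of 1200.3 RPM. It had 0 counts in 18 of 36 libraries and at least 863 RPM in the other 18, where its level was 0.637 to 0.884 times that of chi-miR-92a-3p (median 0.839). In 10 of 12 groups, libraries with 0 and with at least 100 counts stood side by side. In high-altitude replicate 2 it had 4344 RPM in muscle and 0 counts in the other 5 tissues, and in high-altitude replicate 1 of spleen it had 7029 RPM. How reads were divided between chi-miR-92a-3p and chi-miR-92b-3p was not tested, and the counts of chi-miR-92a-3p are uncertain to that extent. This reaches summed miR-17-92, of which chi-miR-92a-3p held 45.4% to 94.6% over the libraries. It also reaches the ratio of the clusters and the share of reads held by chi-miR-92a-3p and chi-miR-25-3p.

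Among 139 other miRNAs with a mean of at least 100 RPM, the 3 most like summed miR-17-92 over the 12 means of tissue and altitude were conserve-chi-miR-142-5p (Pearson correlation 0.94), chi-let-7g-5p (0.91) and chi-miR-15a-5p (0.91). For summed miR-106b-25 they were conserve-chi-miR-142-5p (0.97), chi-miR-146a-3p (0.96) and chi-miR-28-3p (0.95). Only miR-142 is in the leukocyte list.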

How the data were processed

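Small RNA libraries of 36 goat tissue samples were analysed as whole-number read counts per mature miRNA, which the authors deposited without normalization. Per the submitters' processing notes, CASAVA 1.8 and Bowtie were used, and the study's methods name miRDeep for detecting miRNAs. Groups came from the sample labels. The members and lists were chosen with earlier results of these data known. Members with a mean of at least 10 RPM were described singly. The others were given by means, counts or test results. Of these, only chi-miR-92a-5p was given in RPM by library, in spleen, after a test had called it. The related list, cell type markers and most similar miRNAs followed fixed rules.

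RPM used the library's summed counts (7108635 to 14407748). Tests used edgeR 4.0.16 in R 4.3.3 (TMM, glmQLFit and glmQLFTest, Benjamini-Hochberg over 1391 miRNAs), within a tissue for altitude and over 12 groups for tissue. The interaction of tissue and altitude called 0 members, against 0.216% of all miRNAs. Scripts were tested on simulated data. Alternatives were RLE, library totals, DESeq2 1.42.0, the exact test, filterByExpr, a replicate block, summed arms, other calls and members, 1 altitude only and each goat left out. Python 3.11.15 with NumPy 2.4.6 and pandas 2.3.3 did the other calculations. Coordinates were not used, since the gene table is of ARS1.2 and the study mapped to ARS1. Mature sequences of the members were not used here.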

Additional observations from a re-analysis of the deposited data

Results flagged for a closer look

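Over the 6 libraries of a tissue, the gap of the extreme library to its nearest neighbour exceeded the 95% critical value of Dixon's ratio in 9 of 66 combinations of a tissue with a member or a cluster sum. Chance gives about 1 in 20 such combinations, and members and sums share libraries. The share flagged over all miRNAs is not given here, so this count is not read as a result about the members or about 1 library. Level of chi-miR-19a-3p was 65.2 RPM in low-altitude replicate 1 of muscle, against 24.8 RPM in the nearest library. Level of chi-miR-92a-3p was 7149.5 RPM in high-altitude replicate 2 of liver, against 3552 RPM in the nearest library. Level of chi-miR-92a-3p was 4995 RPM in high-altitude replicate 2 of muscle, against 1745 RPM in the nearest library. Level of chi-miR-92a-3p was 11030.1 RPM in high-altitude replicate 1 of spleen, against 5312 RPM in the nearest library. Level of chi-miR-25-3p was 6348 RPM in high-altitude replicate 2 of lung, against 3625 RPM in the nearest library. Summed miR-17-92 was 3827 RPM in high-altitude replicate 2 of heart, against 2962 RPM in the nearest library. Summed miR-17-92 was 5362 RPM in high-altitude replicate 2 of muscle, against 2051 RPM in the nearest library. Summed miR-17-92 was 13618 RPM in high-altitude replicate 1 of spleen, against 7247 RPM in the nearest library. Summed miR-106b-25 was 7712 RPM in high-altitude replicate 2 of lung, against 4626 RPM in the nearest library. High-altitude replicate 2 accounts for 6 of these values. In lung the endothelial miR-126 was at 13483, 38674 and 7543 RPM in high-altitude replicates 1 to 3. In spleen high-altitude replicate 1, the leukocyte list was lowest of the 6. The part of these libraries' cell composition in the values was not tested. In the erythroid list, conserve-chi-miR-486-5p had 0 counts in 4 libraries, namely high-altitude replicate 2 of kidney, lung and spleen and high-altitude replicate 3 of spleen, and 87668 counts in high-altitude replicate 1 of spleen. There chi-miR-144-3p had 0 counts, against 6840 and 8672 in high-altitude replicates 2 and 3, and it had 0 in 16 of 36 libraries. The cause of these zeros was not tested. No member passed the interaction test of tissue and altitude.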

How the results depend on the processing

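Calls of members between altitudes were 0 under 15 of 16 alternatives and 1 with DESeq2's Wald test. Over all miRNAs, the share of pairs called was 0.0359% with the reported fit, 4.89% with DESeq2 and 0.335% with the exact test. Shares for the other alternatives are not given here, so their counts are not read as a result about the members. Member calls of a tissue against the others were 7 (spleen), 0 (lung), 4 (liver), 3 (heart), 6 (kidney), 4 (muscle) as reported, and changed by over 1.5 times in these alternatives, given with the share of the miRNAs tested in the same fit that it called in either direction. With the reported fit this share was 19.5% (spleen), 16.5% (lung), 15.9% (liver), 13.3% (heart), 16.1% (kidney), 17.7% (muscle). Calls with the high-altitude goats alone numbered 3 for spleen (7.69%), 0 for liver (6.04%), 1 for heart (6.33%), 0 for kidney (7.91%) and 1 for muscle (10.4%). Calls with the low-altitude goats alone numbered 1 for lung (10.9%), 1 for liver (9.71%), 1 for heart (9.71%) and 0 for kidney (10.5%). Calls with a fold change minimum of 1.5 on the log2 scale numbered 2 for spleen (14.9%), 0 for liver (12.1%), 1 for heart (10.1%), 0 for kidney (12.4%) and 0 for muscle (13.7%). Calls with scaling by library totals numbered 3 for lung (17.4%), 1 for kidney (14.4%) and 7 for muscle (18.1%). Calls with DESeq2 numbered 5 for lung (37.8%) and 7 for muscle (35.3%). Calls with filterByExpr numbered 4 for lung (34.4%) and 8 for muscle (35.5%). Calls with RLE numbered 2 for lung (17.4%). Calls with summed arms numbered 2 for muscle (19.6%), where both arms of a member count as 1 entry and 821 entries were tested. Calls with the goat as replicate block numbered 2 for lung (14.1%). With a goat left out, calls ran from 5 to 8 (spleen, 13.5 to 15.8%), 0 to 4 (liver, 10.8 to 12.7%), 1 to 2 (heart, 9.35 to 11.1%), 0 to 2 (kidney, 12.6 to 14.6%), 2 to 5 (muscle, 13.6 to 15.2%), and were 0 for lung with each goat (10.7 to 12.7%). Fewer libraries are used with 1 altitude or a goat left out, summed arms leave fewer member entries, and the cause of the other changes was not tested. The log2 ratio of summed miR-17-92 to summed miR-106b-25 without miR-19b and miR-92a, which hold most reads of miR-17-92, was -3.08 (spleen), -3.79 (lung), -2.98 (liver), -3.28 (heart), -2.89 (kidney), -3.40 (muscle). Without miR-92a and miR-25 it was 1.03 in kidney, which then had the highest mean in place of muscle. Libraries then ran from 0.10 to 2.26 in kidney, -0.79 to 2.02 in heart and -0.32 to 1.86 in muscle. They ran from -1.07 to 1.16 in spleen, -1.30 to 1.12 in liver and -0.73 to 0.99 in lung.

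Between altitudes, signs changed for log2 fold changes that were not called. Liver chi-miR-19b-3p had -0.34, against -1.17 to 0.15 with a goat left out. Lung chi-miR-19b-3p had -0.43, against -0.82 to 0.084 with a goat left out. Spleen chi-miR-19b-3p had 0.048, against -0.083 with the replicate block and -0.44 to 0.43 with a goat left out. Heart chi-miR-93-5p had -0.0023, against 0.15 with library totals and -0.26 to 0.11 with a goat left out. Kidney chi-miR-93-5p had -0.11, against -0.29 to 0.10 with a goat left out. Liver chi-miR-93-5p had -0.033, against 0.053 with RLE, 0.053 with DESeq2, 0.023 with summed arms, 0.074 with equal entries kept once, 0.059 with 1 fit over all libraries and -0.096 to 0.084 with a goat left out. The cause was not tested.

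Signs also changed for uncalled log2 fold changes of the same members in a tissue against the others. Heart chi-miR-19b-3p had -0.18, against 0.29 with low-altitude goats and -0.94 to 0.11 with a goat left out. Liver chi-miR-19b-3p had 0.081, against -0.0071 with low-altitude goats and -0.40 to 0.38 with a goat left out. Lung chi-miR-19b-3p had -0.33, against 0.19 with library totals. Heart chi-miR-92a-3p had 0.078, against -0.47 with library totals, -0.068 with high-altitude goats and -0.045 to 0.19 with a goat left out. Liver chi-miR-92a-3p had 0.027, against -0.070 with filterByExpr, -0.013 with the replicate block, -0.036 with low-altitude goats and -0.085 to 0.083 with a goat left out. Lung chi-miR-92a-3p had -0.21, against 0.021 with RLE, 0.46 with library totals, 0.021 with DESeq2, 0.085 with filterByExpr, 0.50 with low-altitude goats and -0.52 to 0.15 with a goat left out. Muscle chi-miR-92a-3p had 0.36, against -0.57 with library totals and -0.100 with low-altitude goats. Heart chi-miR-25-3p had -0.052, against -0.14 to 0.016 with a goat left out. Liver chi-miR-25-3p had -0.0093, against 0.017 with RLE, 0.39 with library totals, 0.017 with DESeq2, 0.023 with summed arms and 0.11 with low-altitude goats. The cause was not tested.

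The labels do not state that a replicate number marks 1 goat across tissues. Deviations of libraries with the same number had a mean correlation of 0.181 over 90 pairs of tissues within an altitude, and 0.0461 over 18 pairs of altitudes within a tissue, over 233 miRNAs. With the replicate block, 0 pairs of member and tissue were called between altitudes, and the share over all miRNAs is not given here. Leaving out a goat takes the number as the goat. With 3 libraries a group, and 0 counts in many libraries for the least abundant members, differences could be missed, and altitude, breed, place and rearing cannot be told apart.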
